A study of Mus musculus and Rattus norvegicus with 26 samples.

Results

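Intron sequence in the RNA of mouse hippocampal neuron somas was compared with that in mouse brown adipose tissue (BAT) cells, a neuronal cell type against a cell type that burns fat. The members are all intronic contigs of the authors' list for mouse somas (12931 contigs) and of their list for BAT cells (42338 contigs), together 55269 of the 112345 contigs in the 6 lists of the series. A contig is a stretch of intron covered by neighbouring reads, and an intron counts as listed when at least 1 contig was reported for it. The study sequenced RNA from single cells and from cut dendrites of mice and rats to find transcripts that keep intron sequence outside the nucleus, and it turned to BAT cells to see such sequence in cells that are not neurons. All RNA went through 3 rounds of aRNA amplification, a linear copying of RNA that starts from a poly(T) primer with a T7 promoter, and the libraries did not keep the strand.

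The somas came from hippocampal neurons of C57BL/6 embryos at embryonic day 18, grown in primary culture, with 3 libraries by the labels. The time in culture adds to the age of these neurons. The BAT cells came from interscapular fat of CD-1 embryos at embryonic day 17.5, digested with collagenase, plated, and picked by their shape as mature brown adipocytes. The labels name 6 BAT libraries, and the paper counts fewer BAT cells than that. No treatment or genetic change is given for either group, and RNA of the nucleus is part of both. Cell type, strain, embryonic age, culture, handling and number of libraries differ together, so that their parts cannot be told apart. The authors pooled the libraries of each cell type into 1 list, so that the lists hold no value per library and give no spread between libraries. All comparisons are therefore descriptions without a test. The paper gives average overlaps of genes and introns between single cells of a type, which were not used here.

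Introns are removed from a transcript by the spliceosome before the mRNA leaves the nucleus, and an intron that stays in a finished transcript is called retained. Neurons carry large sets of synaptic, channel and adhesion genes, many of which span very long introns, and they splice them in forms that other tissues do not make. Brown adipocytes store fat in many small droplets and burn it in mitochondria that carry the uncoupling protein Ucp1, under the control of transcription factors such as Pparg, Prdm16 and Ebf2.

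The sequences that carry the comparison are windows of 300 nt from introns described further on, read from the mouse genome build NCBIM37 (mm9) on the strand of the gene, 5′ to 3′, with tracts of at least 10 A or T in capitals. The intron of Gad1, listed in somas only, is shown at chr2:70426887-70427186 (plus strand), where a tract of 24 A lies inside the contig. The intron of Gria4, listed in both with far more reads in somas, is shown at chr9:4531743-4532042 (minus strand), where a tract of 11 A lies inside a soma contig and at the 3′ end of a BAT contig. The intron of Fabp4, listed in BAT cells only, is shown at its 3′ end, chr3:10204571-10204870 (minus strand), since its contig covers nearly the whole intron, and the window ends with the AG of the splice site. The intron of Ptprr, also listed in BAT cells only, is shown at chr10:115708767-115709066 (plus strand), where a tract of 13 A ends 159 nt past the end of a contig. The intron of Taf15, at nearly equal values in both lists, is shown at chr11:83312945-83313244 (plus strand), where a tract of 17 A ends 10 nt past the end of the soma contig and inside the BAT contig, which runs 461 nt further. The last window is from an intron of Mlh3 listed in BAT cells, at chr12:86583303-86583602 (minus strand), and holds no tract. This gene was listed in both cell types without a common intron.
Gad1 intron 10, somas: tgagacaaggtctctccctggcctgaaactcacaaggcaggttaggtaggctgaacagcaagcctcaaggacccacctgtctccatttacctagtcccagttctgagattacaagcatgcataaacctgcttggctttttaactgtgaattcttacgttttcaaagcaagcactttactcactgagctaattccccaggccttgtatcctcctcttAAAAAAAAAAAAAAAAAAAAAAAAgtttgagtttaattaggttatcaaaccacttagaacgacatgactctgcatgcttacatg
Gria4 intron 5, somas: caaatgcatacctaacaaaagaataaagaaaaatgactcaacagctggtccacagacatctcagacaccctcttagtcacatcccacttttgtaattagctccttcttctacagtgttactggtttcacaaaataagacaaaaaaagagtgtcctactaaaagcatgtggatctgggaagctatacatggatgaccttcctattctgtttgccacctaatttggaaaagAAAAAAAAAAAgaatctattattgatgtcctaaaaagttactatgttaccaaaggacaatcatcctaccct
Fabp4 intron 3, BAT cells: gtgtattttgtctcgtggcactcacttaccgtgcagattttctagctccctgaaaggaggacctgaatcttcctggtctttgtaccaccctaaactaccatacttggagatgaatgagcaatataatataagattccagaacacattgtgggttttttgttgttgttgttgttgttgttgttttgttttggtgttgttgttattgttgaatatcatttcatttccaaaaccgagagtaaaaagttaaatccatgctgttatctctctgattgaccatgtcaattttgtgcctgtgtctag
Ptprr intron 13, BAT cells: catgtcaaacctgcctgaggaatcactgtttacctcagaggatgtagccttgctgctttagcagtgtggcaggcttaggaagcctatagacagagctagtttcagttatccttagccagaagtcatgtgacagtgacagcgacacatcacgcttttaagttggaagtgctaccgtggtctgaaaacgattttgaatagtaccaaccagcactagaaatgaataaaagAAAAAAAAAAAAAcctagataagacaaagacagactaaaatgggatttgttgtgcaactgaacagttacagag
Taf15 intron 10, somas: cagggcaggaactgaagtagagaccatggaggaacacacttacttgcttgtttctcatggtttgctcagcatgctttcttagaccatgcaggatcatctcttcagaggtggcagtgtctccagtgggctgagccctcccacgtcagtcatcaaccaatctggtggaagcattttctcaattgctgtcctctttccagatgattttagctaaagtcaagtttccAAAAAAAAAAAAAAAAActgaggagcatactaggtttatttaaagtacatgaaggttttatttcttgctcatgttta
Mlh3 intron 8, BAT cells: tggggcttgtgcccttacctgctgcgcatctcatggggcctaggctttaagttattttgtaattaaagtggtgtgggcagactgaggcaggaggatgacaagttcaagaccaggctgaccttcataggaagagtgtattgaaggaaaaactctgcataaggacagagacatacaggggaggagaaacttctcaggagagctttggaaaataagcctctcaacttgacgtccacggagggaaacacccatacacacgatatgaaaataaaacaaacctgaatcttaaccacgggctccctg

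The soma list held 10568 introns of 6075 RefSeq transcripts, or 5895 genes by symbol, with 1855447 reads in all and a median of 22 reads per intron. The BAT list held 30018 introns of 10639 transcripts, or 10220 genes, with 17858440 reads and a median of 29 reads per intron. Reads were taken once per transcript and intron and given in rpm, the reads per 1000000 reads of the same list, so that 1 read is 0.539 rpm in somas and 0.0560 rpm in BAT cells. The values are not divided by length, so an order of introns or genes is an order of reads and not of molecules. An intron missing from a list is called unlisted, since the lists hold only introns that passed the authors' filters, and neither a fold nor a lower limit was computed for it. In these pooled values a smaller number of cells with an RNA and less of it per cell cannot be told apart.

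The markers set the lists apart in the way the labels name the cells. Of 12 brown adipocyte markers, 10 were listed, all of them in BAT cells, with 9009 rpm in BAT cells against 2.16 rpm in somas. Fabp4, the fatty acid carrier of adipocytes, had 4417 rpm in BAT cells, Pparg, the main regulator of fat cell formation, 2937 rpm, Plin1, a coat protein of lipid droplets, 753 rpm, and Ucp1 369 rpm in 5 introns. These 4 genes were unlisted in somas, where only Prdm16 and Ebf2 appeared with 1.08 rpm each. The coactivator Ppargc1a and Cebpa, a gene that has no intron, were unlisted in both.

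Of 15 neuron markers, 9 were listed, 8 of them in somas with 6078 rpm and 7 in BAT cells with 1239 rpm. Syt1, the calcium sensor of transmitter release, had 4668 rpm in somas, 76.8% of the soma sum, and 455 rpm in BAT cells, and the axonal protein tau, Mapt, had 225 and 1.51 rpm. Rbfox3, the neuronal splicing factor known as NeuN, and the neuronal tubulin Tubb3 were listed in somas only. Mtap2, which encodes the dendritic protein MAP2, went the other way, with 62.5 rpm in somas and 583 rpm in BAT cells. The neurofilament genes Nefl and Nefm, Syn1 and Eno2 were unlisted in both, and Dcx, a protein of young neurons, was listed in BAT cells only, at 1.68 rpm. Intronic reads of neuron markers were therefore present in both cell types, with most of the difference in the sums from Syt1, while those of brown adipocyte markers were nearly confined to BAT cells.

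Markers of other cells were also counted. Of 8 cardiomyocyte markers, 4 were listed, with 4.31 rpm in somas and 2545 rpm in BAT cells, led there by the heart transcription factor Nkx2-5 (1501 rpm), the sarcomere protein Actn2 (699 rpm) and the calcium channel Ryr2 (345 rpm). Myh6, the main myosin of heart muscle, had 0.448 rpm in BAT cells, and Myh7, Tnnt2, Gata4 and Tbx5 were unlisted in both. Of 10 skeletal muscle markers, 6 were listed, with 174 rpm in somas and 863 rpm in BAT cells, led in both by the giant filament protein Neb, while Myod1, Myf5, Myog and Acta1 were unlisted. Of 8 endothelial markers, all were listed, with 761 rpm in somas and 432 rpm in BAT cells, led by Kdr, a receptor for vascular growth factor, in somas and by Emcn in BAT cells. Of 9 astrocyte markers, 5 were listed, with 142 rpm in somas and 46.3 rpm in BAT cells, and 96.2% of the soma value came from the glutamate transporter Slc1a2, while Gfap, Gja1, Glul and S100b were unlisted. Of 9 macrophage markers, 4 were listed, with 169 and 171 rpm, led in both by Ptprc, and Csf1r, Cd68, Cx3cr1 and Aif1 were unlisted. Of 9 fibroblast markers, 6 were listed, with 55.0 rpm in somas, all from Pdgfra, and 34.0 rpm in BAT cells, led by the collagen gene Col1a1. Of 10 oligodendrocyte lineage markers, 3 were listed, with 1.08 rpm in somas and 113 rpm in BAT cells, 99.7% of it from Cspg4. Of 6 Schwann cell markers, 3 were listed, all in BAT cells only, with 3.08 rpm, led by Prx. Whether other cells add to the values of any gene group was not tested.

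Of 34724 introns in either list, 4706 were listed in somas only, 5862 in both and 24156 in BAT cells only. The shared introns are 55.5% of the soma introns (95% Wilson interval 54.5 to 56.4) and 19.5% of the BAT introns (19.08 to 19.98). All intervals are of this kind and cover counting error only. Of 11039 genes in either list, 819 (7.42%) were listed in somas only, 5076 (46.0%) in both and 5144 (46.6%) in BAT cells only, so that 86.1% of the soma genes (85.2 to 87.0) but 49.7% of the BAT genes (48.7 to 50.6) had an intron in the other list. Most introns listed in a single cell type belonged to genes of both: 78.7% of the soma-only introns (77.5 to 79.8) and 56.2% of the BAT-only introns (55.6 to 56.8). By reads, shared introns held 63.6% of the soma list and 33.1% of the BAT list, and genes unlisted in the other cell type held 8.25% of the soma reads and 28.3% of the BAT reads.

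**Figure D1:**
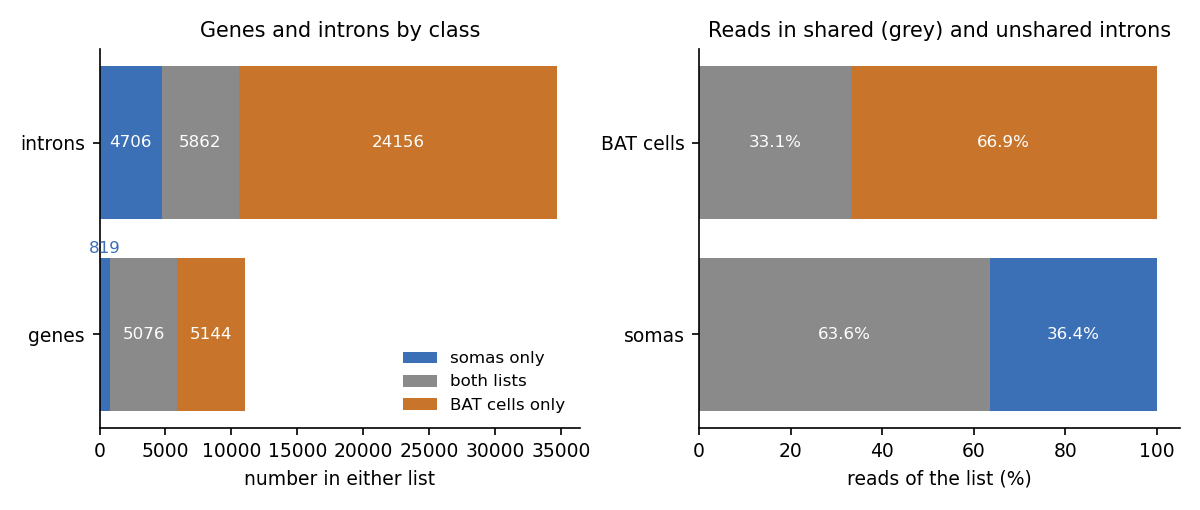
Number of introns and genes listed in somas only (blue), in both (grey) and in BAT cells only (orange), and percent of each list's reads that lie in shared introns (grey) or in introns of that list alone. Shared introns are 5862 of 34724, and they hold 63.6% of the soma reads and 33.1% of the BAT reads.

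The shares depend on reads. Among introns below 2 rpm, 49.1% of the soma introns (47.0 to 51.2) and 13.9% of the BAT introns (13.4 to 14.5) were in the other list. Among introns from 256 to 512 rpm the shares were 64.7% (59.9 to 69.2) and 40.8% (36.0 to 45.8). At 1024 rpm and more, the share of soma introns was 70.3% (62.9 to 76.7), and the share of BAT introns was 31.7% (24.99 to 39.2). From doubling to doubling the share rose throughout in somas, while in BAT cells it was lower at 64 to 128 rpm (29.2%) than at 32 to 64 rpm (30.8%) and fell again above 512 rpm. Of the 1782 soma introns with at least 100 rpm, 63.7% (61.5 to 65.9) were listed in BAT cells and 93.2% lay in a gene listed there. Of the 1747 BAT introns with at least 100 rpm, 35.4% (33.2 to 37.7) were listed in somas and 73.4% lay in a gene listed there. Well-read introns of BAT cells were thus more often unlisted in somas than the reverse, in lists whose totals of reads differ. With introns kept only at 10 rpm or more in each list, the shares lay closer, at 31.6% for somas and 24.0% for BAT cells.

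**Figure D2:**
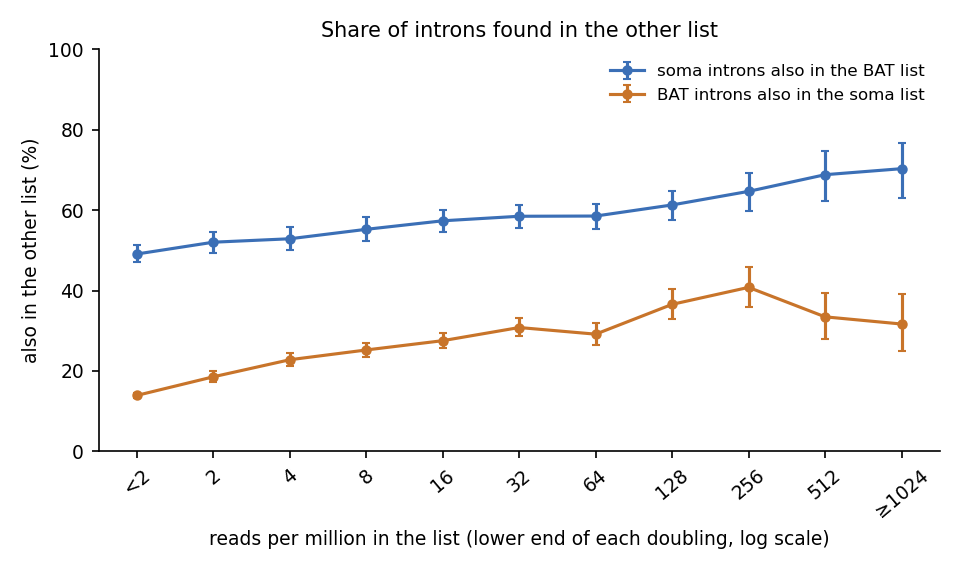
Percent of introns also in the other list, by rpm in doublings (log scale), for soma introns (blue) and BAT introns (orange), with 95% Wilson intervals for counting error. The soma shares run from 49.1% to 70.3%, and the BAT shares from 13.9% to 40.8% at 256 rpm and then 31.7% at 1024 rpm and above.

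The soma-only intron with the most reads was intron 10 of Gad1 (NM_008077), the enzyme that makes the inhibitory transmitter GABA, with 45674 reads, or 24616 rpm. Its single contig of 1290 nt spans 61.9% of an intron of 2084 nt, and Gad1 as a whole held 2.46% of all soma reads in 5 introns. The gene had no contig at all in BAT cells. The same intron was also unlisted in the mouse dendrite and cardiomyocyte lists.

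The next soma-only introns were intron 7 of Ptprd, a receptor tyrosine phosphatase that organizes synapses (5816 rpm), intron 5 of Srrm1, a splicing coactivator (5296 rpm), and intron 2 of Ces4a, a carboxylesterase (5225 rpm). Then came intron 2 of Pde10a, which degrades cyclic nucleotides (4926 rpm), intron 3 of Phlpp1, which removes phosphate from Akt (4841 rpm), and intron 3 of Fkbp6, an immunophilin needed in male meiosis (4678 rpm). The last of the 10 were intron 4 of Dgat2l6, an acyltransferase of the diacylglycerol family (4612 rpm), intron 1 of Pcnx (4279 rpm) and intron 2 of Ctnna2, the neuronal alpha-catenin of cell junctions (4246 rpm). Apart from Gad1 and Fkbp6, these genes were listed in BAT cells through other introns. Their BAT totals were small for Ces4a (0.672 rpm), Ptprd and Dgat2l6 (0.784 rpm each) and Srrm1 (1.79 rpm), and large for Phlpp1 (176 rpm) and Ctnna2 (1906 rpm). Contigs of Srrm1, Pde10a and Dgat2l6 touch an annotated exon of the same strand.

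Among the BAT-only introns, intron 13 of Ptprr (NM_011217), a phosphatase that acts on MAP kinases, had the most reads, 98533, or 5517 rpm. Intron 16 of Kif1b, a kinesin that carries mitochondria and vesicles, followed with 5323 rpm, and its contig of 453 nt covers 96.4% of the intron. Intron 2 of Ctnna3, the alpha-catenin of heart and testis, had 5094 rpm, and intron 3 of Cdo1, which oxidizes cysteine on the way to taurine, had 4614 rpm. Intron 3 of Fabp4 had 70980 reads, or 3975 rpm, in a contig of 669 nt that covers 99.9% of its 670 nt. High values were also found in intron 7 of the histone demethylase Kdm6a (3898 rpm), intron 3 of Mettl9, a histidine methyltransferase (3771 rpm), intron 2 of Rabgef1, an exchange factor of endosomal Rab proteins (3554 rpm), and intron 16 of Ndufs1, a subunit of the mitochondrial NADH dehydrogenase (3423 rpm). Cdo1, Fabp4, Kdm6a, Mettl9 and Rabgef1 had no contig in somas. Ctnna3 had 2369.8 rpm in somas, Kif1b 419 rpm, Ndufs1 307 rpm and Ptprr 170 rpm, all in other introns. The contig of Rabgef1 touches an exon of the same strand, and that of Ndufs1 lies within a gene of the other strand.

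Genes unlisted in the other cell type were also ranked by their total, and those named here beyond the introns above were chosen after their values were seen. In somas Gad1 (24639 rpm) and Fkbp6 were followed by Grik1, a kainate receptor subunit (2701 rpm in 8 introns), Dclk2, a doublecortin-like kinase (2436 rpm), Herpud1, a protein of the endoplasmic reticulum stress response (1901 rpm), Srprb, a subunit of the signal recognition particle receptor (1488 rpm), and Cyp51, a demethylase of sterol synthesis (1309 rpm). In BAT cells Cdo1, Fabp4, Kdm6a, Rabgef1 and Mettl9 were followed by Plcxd2 (3294 rpm), Pparg (2937 rpm in 4 introns), Bbx, an HMG-box protein (2740.3 rpm in 6 introns), Arl6, a small GTPase of cilia (2498 rpm), and Isy1, a splicing factor (2476 rpm in 6 introns). The soma genes thus include neuronal ones and ones that most cells use, and the BAT genes include Fabp4 and Pparg of the fat cell beside genes of general function.

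The 10 shared introns with the highest lower value lay in genes of varied function. Intron 7 of NM_172592, listed as Srsf12 but by its transcript and its place on chromosome 13 the splicing regulator Srek1, had 2250.1 rpm in somas and 1787 rpm in BAT cells, and the contigs overlap in 2 places. Intron 3 of Pitpna, a phosphatidylinositol transfer protein, had 1734 and 1868 rpm in contigs of 1608 and 1577 nt that cover the same stretch. That stretch touches an exon on the other strand, and since the libraries did not keep the strand, reads of Pitpna and of the opposite gene cannot be told apart. Intron 10 of Taf15, an RNA-binding protein, had 1008 and 868 rpm, intron 10 of Fbxo3, a ubiquitin ligase subunit, 1042 and 825 rpm, and intron 1 of Cyth3, an exchange factor of Arf proteins, 665 and 621 rpm. Higher in BAT cells were intron 6 of Ppfia2, the presynaptic scaffold liprin-alpha, with 1091 and 1859 rpm, and intron 13 of Cngb3, a channel subunit of cone cells, with 1035 and 2448 rpm. Higher in somas were intron 11 of Ctnna3 with 2268 and 934 rpm, intron 3 of Mtss1, which bends membranes and binds actin, with 6089 and 787 rpm, and intron 6 of Nktr, a cyclophilin-related protein, with 3288 and 705 rpm. In Ppfia2, Ctnna3, Mtss1 and Cyth3 the contigs of the lists do not overlap. Apart from Cyth3, their nearest contigs lie closer than the distance over which the authors joined reads into 1 contig. Contigs of Fbxo3, Nktr and Ppfia2 touch an exon of the same strand.

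Over all shared introns the values of the lists were only weakly related, with a Spearman correlation of 0.1225 across 5862 introns and 0.246 across 5076 genes (introns and genes are not independent replicates). The median log2 ratio of somas over BAT cells was 1.68 for introns and 0.38 for genes. For introns with at least 1 rpm in both lists the median was 0.097, with at least 10 rpm 0.41 and with at least 100 rpm 0.12. At least 10-fold higher in somas were 1965 introns (33.5%), and at least 10-fold higher in BAT cells were 662 (11.3%). With the median ratio of shared introns set to 1, a scaling that evens the sides out by construction, the split was 1277 against 1262, so the size of the excess in somas depends on the scaling. It also depends on the minimum value. Among the 4163 introns with at least 1 rpm in both lists, 783 (18.8%) were 10-fold higher in somas and 661 (15.9%) in BAT cells. Among the 1432 introns with at least 10 rpm in both lists, a limit added after the values were seen, 178 (12.4%) were 10-fold higher in somas, 97 (6.77%) in BAT cells, and 467 (32.6%) were within 2-fold. Among the 185 introns with at least 100 rpm in both, 89 (48.1%) were within 2-fold.

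**Figure D3:**
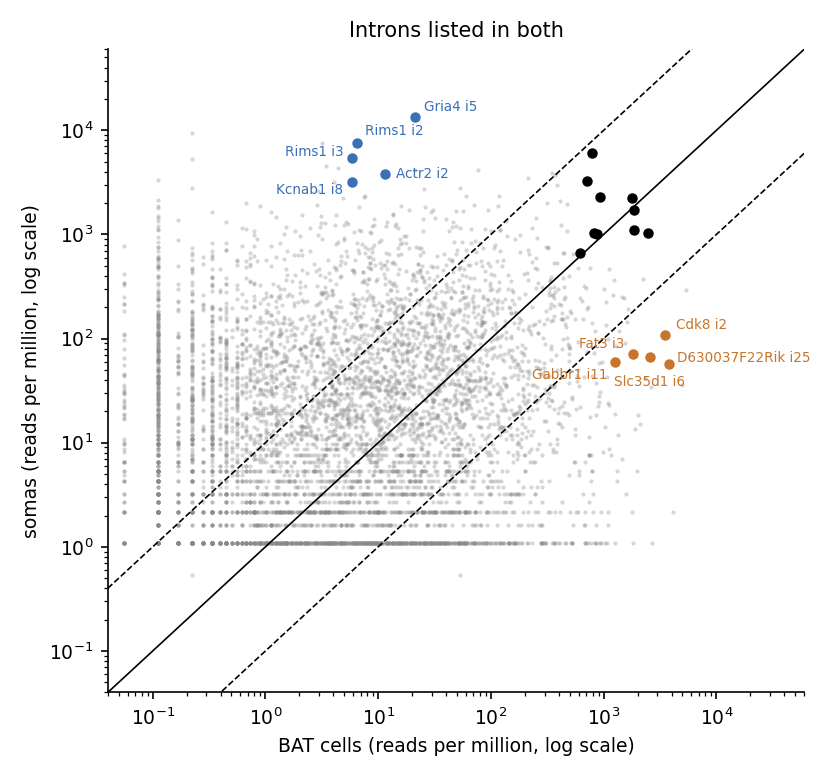
Values in rpm in BAT cells and in somas (both log scales) for the 5862 introns listed in both (grey), with equal values as a solid line and 10-fold differences as dashed lines. Blue and orange points are the 5 introns with the largest fold each way among those with at least 100 reads in both lists, and black points are the 10 with the highest lower value. 1965 introns lie above the upper dashed line and 662 below the lower one.

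The 5 largest folds to somas were named among the 933 introns with at least 100 reads in each list, a limit that allows larger folds to somas, since 1 read stands for more rpm there. Intron 2 of Rims1, a scaffold of the zone where synaptic vesicles fuse, had 14024 reads in somas and 116 in BAT cells, or 7558 and 6.496 rpm, a log2 ratio of 10.18. Intron 3 of the same gene had 5463 and 5.82 rpm (log2 9.87). Intron 5 of Gria4, a subunit of the AMPA receptor for glutamate, had 24913 and 382 reads, or 13427 and 21.4 rpm (log2 9.29). Intron 8 of Kcnab1, an auxiliary subunit of potassium channels, had 3222 and 5.82 rpm (log2 9.11), and intron 2 of Actr2, a core part of the actin-branching complex, had 3843 and 11.5 rpm (log2 8.38). In all 5 introns a BAT contig overlaps a soma contig. The contigs of Kcnab1 lie within a gene of the other strand, whose reads cannot be told apart from its own, and a BAT contig of Actr2 touches an exon of the same strand.

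The 5 largest folds to BAT cells were in introns of 5 genes. Intron 25 of D630037F22Rik, now named Tbc1d32, had 105 reads in somas and 67410 in BAT cells, or 56.6 and 3775 rpm (log2 -6.06). Intron 6 of Slc35d1, a nucleotide sugar transporter, had 66.8 and 2559 rpm (log2 -5.26), and intron 2 of Cdk8, a kinase of the Mediator complex, had 108 and 3528 rpm (log2 -5.03). Intron 3 of Fat3, a giant cadherin, had 71.1 and 1805 rpm (log2 -4.66), and intron 11 of Gabbr1, a subunit of the metabotropic GABA receptor, had 59.3 and 1272 rpm (log2 -4.42). In D630037F22Rik and Fat3 the contigs of the lists do not overlap, with gaps of 629 and 214 nt, so that these folds compare different stretches of the intron. Contigs of Cdk8 and Slc35d1 touch an exon of the same strand.

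Fixed lists of genes were summed over all listed introns of their members, and the members named were in part chosen after their values were seen. In values with contigs of at most 400 nt, an intron with a short contig kept its whole count, with the reads of its longer contigs. For the reading of each list, 22.8% of all shared genes were at least 10-fold higher in somas and 17.0% at least 10-fold higher in BAT cells, and the median log2 over all shared genes was 0.38. Of all 11039 genes, 3552 (32.2%) were higher in somas or listed there only, and 7487 were higher in BAT cells or listed there only. The 32.2% counts genes listed in BAT cells only on the BAT side. A list with fewer such genes can therefore exceed it without higher values in somas among its shared members. The shares listed in a single cell type were 7.42% for somas and 46.6% for BAT cells, as given above. A list with a summed log2 ratio between 0 and 1.68 changes side when the median ratio of shared introns is set to 1, and a single gene in that range does so too, while no list changes side with the median ratio of shared genes set to 1.

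Presynaptic release genes had the highest sum in somas. Of 32 listed members, 25 were in both, 2 in somas only and 5 in BAT cells only, with 37770.4 rpm in somas and 5280 rpm in BAT cells (log2 2.84), and 14 of the 25 shared genes were at least 10-fold higher in somas against 1 in BAT cells. Rims1 held 45.3% of the soma sum, with 17102 rpm against 52.5 rpm. Cadps, which primes dense-core vesicles, had 4791 and 31.7 rpm, the vesicle protein Sv2c 3209 and 4.37 rpm, and Unc13a, a priming factor of synaptic vesicles, 648 and 0.224 rpm. Higher in BAT cells or listed there only were 12 members, among them the liprin Ppfia2 (1833 and 1928 rpm), the active zone protein Pclo (742 and 893 rpm), Amph, which binds membranes in endocytosis (298 and 538 rpm), and Erc2 (256 and 499 rpm). The median log2 of the shared members was 3.74.

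Glutamate receptors had 28583 rpm in somas and 2933 rpm in BAT cells (log2 3.28), with 14 of 21 listed genes in both, 4 in somas only and 3 in BAT cells only. Gria4 held 50.6% of the soma sum with 14459 rpm against 464 rpm. Of the other AMPA receptor subunits, Gria1 had 4101 and 1.90 rpm, Gria2 77.6 and 0.112 rpm and Gria3 103 and 283 rpm. The metabotropic receptor Grm5 had 3461 and 296 rpm, and the obligatory NMDA receptor subunit Grin1 was listed in somas only (337 rpm). Grm3 (1.08 and 528 rpm) and Grid1 (4.31 and 286 rpm) stood on the BAT side, so receptor introns were not absent from BAT cells.

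GABA and glycine signalling had 31708 rpm in somas and 3559 rpm in BAT cells (log2 3.16), but Gad1 alone held 77.7% of the soma sum, and with contigs of at most 400 nt the log2 ratio was 0.18. Of 23 listed members, 17 were in both, 3 in somas only and 3 in BAT cells only. The median log2 of the 17 shared members was -0.89. Gad2, the second GABA-making enzyme, had 2329 and 1.40 rpm, and the receptor subunit Gabrb2 3112 and 464 rpm. On the BAT side were Gabbr1 (77.6 and 1272 rpm), Abat, which degrades GABA (9.16 and 403 rpm), and Gabra4 (21.6 and 403 rpm). By number of members, 11 of the 23 (47.8%) were higher in somas or listed there only, against 32.2% of all genes.

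Sodium and calcium channels had 8687 rpm in somas and 2447 rpm in BAT cells (log2 1.83), and potassium channels had 12011 and 2448 rpm (log2 2.29, and 1.19 with contigs of at most 400 nt). Cacna1b, the pore of the N-type calcium channel of nerve endings, had 4342 and 35.6 rpm, and the auxiliary subunit Cacna2d1 had 1150.1 and 645 rpm. The sodium channel Scn2a1 had 556 and 26.4 rpm, while Scn8a, which carries much of the sodium current at the start of the axon, had 557 and 1183 rpm, 48.3% of the BAT sum. Among potassium channel genes Kcnab1 (4003 and 161 rpm), Kcnt2 (2121 and 130 rpm), the inward rectifier Kcnj3 (1817 and 26.1 rpm) and Kcnh7 (1797 and 25.3 rpm) were higher in somas. Kcnq5, a channel of the M current, had 2.16 and 1569 rpm and made up 64.1% of the BAT sum. Of the sodium and calcium channel genes, 13 of 21 listed members (61.9%) were higher in somas or listed there only, and of the potassium channel genes 12 of 20, against 32.2% of all genes, while Scn8a and Kcnq5 led in BAT cells.

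Postsynaptic scaffolds and kinases were closer by their sums, with 8528 rpm in somas and 6228 rpm in BAT cells (log2 0.45, -1.23 with the median ratio of shared introns set to 1, and -0.88 with contigs of at most 400 nt). Of 27 listed members, 17 were in both, 4 in somas only and 6 in BAT cells only, and 18 were higher in somas or listed there only. Shared members had a median log2 of 2.28, and 6 of them were at least 10-fold higher in somas against 1 in BAT cells. Dlg2, a scaffold at NMDA receptors, had 2777 and 573 rpm, Magi2 1106 and 175 rpm, Shank3 451 and 0.448 rpm, and the kinase subunit Camk2a 240 and 0.0560 rpm. Dlg1, a scaffold that epithelia use too, had 168 and 3184 rpm and held 51.1% of the BAT sum. Camk2d, the form of this kinase found in many tissues, had 940.5 and 912 rpm.

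Synaptic and neuronal adhesion genes had 26405.5 rpm in somas and 12446 rpm in BAT cells (log2 1.09, and -0.60 with the median ratio of shared introns set to 1). Of 35 listed members, 21 were in both, 2 in somas only and 12 in BAT cells only. Nrcam, an adhesion protein of axons, had 3639 and 1.34 rpm, the presynaptic neurexin Nrxn3 2793 and 3.14 rpm, Cntn5 3087 and 271 rpm, and Ctnnd2, a catenin of dendrites, 2780.5 and 36.5 rpm. Cadm2 (102 and 2664 rpm) and Csmd3 (3.23 and 1186 rpm) were higher in BAT cells, and Nfasc (1494 rpm) and Cntnap2 (454 rpm), both of the nodes of axons and their borders, were listed in BAT cells only. The shared adhesion genes had a median log2 of 2.33, with 8 at least 10-fold higher in somas against 3 in BAT cells, and 45.7% of the members were higher in somas or listed there only, against 32.2% of all genes.

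Axon guidance genes had 5264 rpm in somas and 5788 rpm in BAT cells (log2 -0.14, and 0.14 with contigs of at most 400 nt), with 24 of 41 listed members in both and 15 in BAT cells only. Shared members had a median log2 of 0.98, on the other side from the ratio of the sums. The netrin receptor Unc5c had 1589 and 92.1 rpm, and its partner Dcc 954 and 734 rpm. The netrin receptor Neo1, which is also found outside the nervous system, was listed in BAT cells only, with 2377 rpm, 41.1% of the BAT sum. The secreted semaphorins Sema3d (51.7 and 693 rpm) and Sema3e (115 and 675 rpm) were higher in BAT cells.

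**Figure D4:**
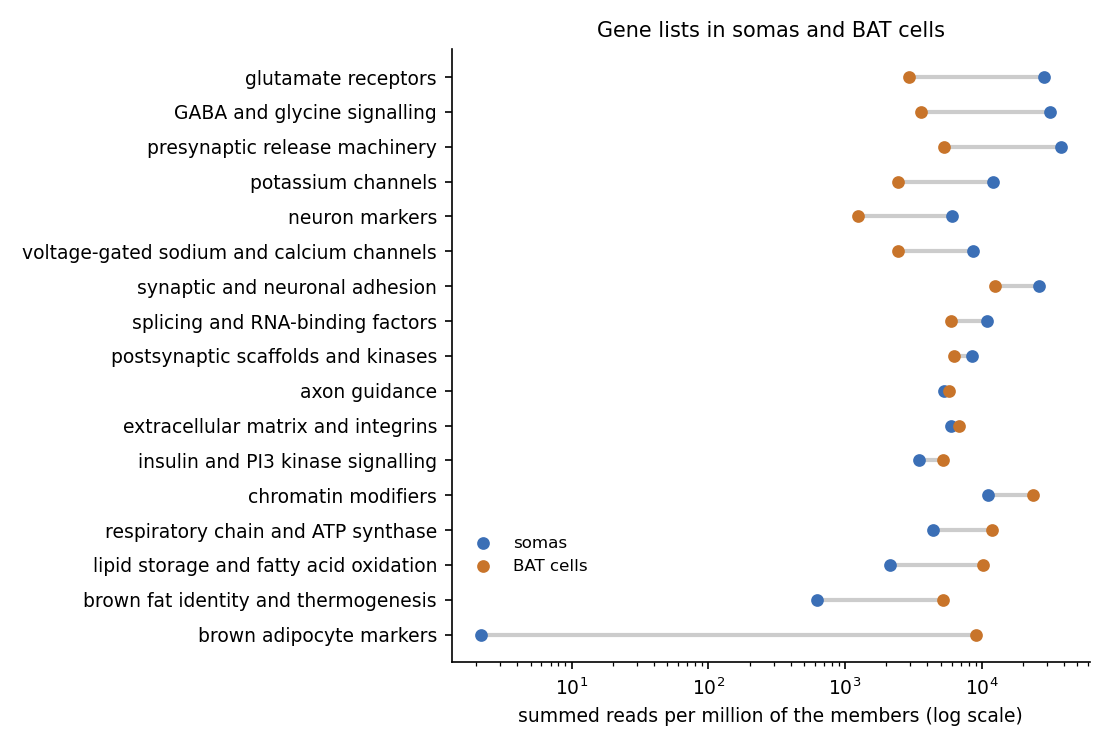
Summed rpm (log scale) of 15 fixed gene lists and of the neuron and brown adipocyte markers in somas (blue) and BAT cells (orange), ordered by their ratio. The glutamate receptor list, at 28583 and 2933 rpm, and the brown adipocyte markers, at 2.16 and 9009 rpm, are at the ends, and 5 lists between them change side: postsynaptic scaffolds, adhesion and splicing factors with the median ratio of shared introns set to 1, and axon guidance, matrix and also postsynaptic scaffolds with contigs of at most 400 nt.

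Genes of brown fat identity and thermogenesis had 624 rpm in somas and 5181 rpm in BAT cells (log2 -3.05). Of 21 listed members, 13 (61.9%, against 46.6% of all genes) were in BAT cells only, 2 in somas only and 6 in both. Pparg held 56.7% of the BAT sum, and Dio2, which activates thyroid hormone (173 rpm), Cox7a1, a muscle and brown fat form of a cytochrome oxidase subunit (123 rpm), and Cidea, a lipid droplet protein (86.7 rpm), were listed in BAT cells only. Elovl6, which lengthens fatty acids, was in both, with 361 and 1224 rpm. The members listed in somas only were the zinc finger gene Zfp516 (143 rpm) and Letmd1 (20.5 rpm), and the nuclear receptor Esrra was higher in somas (92.7 and 34.0 rpm).

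Lipid storage and fatty acid oxidation genes had 2117 rpm in somas and 10276 rpm in BAT cells (log2 -2.28, and -3.36 with contigs of at most 400 nt), and none of 43 listed members was in somas only, while 25 (58.1%, against 46.6% of all genes) were in BAT cells only. Fabp4 held 43.0% of the BAT sum. The acetyl-CoA carboxylase Acaca had 82.5 and 1682 rpm, the oxidation enzyme Hadha 11.3 and 714 rpm, and Acadvl, for very long chains, 1.62 and 294 rpm. Listed in BAT cells only were the droplet proteins Plin1 (753 rpm) and Plin5 (449 rpm), the carnitine acyltransferase Cpt1a (286 rpm), the fatty acid receptor Cd36 (286 rpm) and the lipase Lpl (249 rpm). Srebf2, the regulator of cholesterol synthesis (704 and 180 rpm), and Dgat1, which makes triglycerides (302 and 16.4 rpm), were higher in somas. The median log2 of the 18 shared members was 0.55, on the soma side, unlike the ratio of the sums.

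Respiratory chain and ATP synthase genes had 4363 rpm in somas and 11811 rpm in BAT cells (log2 -1.44), with 43 of 53 listed members in both, of which 12 were at least 10-fold higher in BAT cells and 2 in somas. Ndufs1 had 307 and 3553 rpm, Ndufv2, also of the NADH dehydrogenase, 117 and 2215 rpm, and Atp5b, the catalytic subunit of ATP synthase, 62.0 and 825 rpm. Uqcrc2, of the cytochrome bc1 complex, went the other way, with 1492 and 440 rpm. The median log2 of the shared members was -1.53, close to the ratio of the sums. By number, 16 of 53 members (30.2%) were higher in somas or listed there only, against 32.2% of all genes. These shares cannot be read as alike, since 17.0% of the members were in BAT cells only, against 46.6% of all genes.

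Chromatin modifiers had 11140 rpm in somas and 23609 rpm in BAT cells (log2 -1.08, and -0.49 with contigs of at most 400 nt), with 56 of 70 listed members in both and 13 in BAT cells only. Ezh1, a histone methyltransferase of the Polycomb complex, had 2.16 and 4203 rpm, its partner Eed 1.62 and 867 rpm, the acetyltransferase Crebbp 79.2 and 1708 rpm, and Kdm6a was listed in BAT cells only (4044 rpm). Nsd1, a methyltransferase of another histone residue, had 1548 and 113 rpm and led in somas. The median log2 of the shared members was -0.53, and 10 of them were at least 10-fold higher in BAT cells against 8 in somas. By number, 24 of 70 members (34.3%) were higher in somas or listed there only, against 32.2% of all genes. Here too the shares cannot be read as alike, since 18.6% of the members were in BAT cells only, against 46.6% of all genes.

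Splicing and RNA-binding factors had 10927 rpm in somas and 5947 rpm in BAT cells (log2 0.88, -0.80 with the median ratio of shared introns set to 1, and 1.63 with contigs of at most 400 nt), with 33 of 56 listed members in both and 19 in BAT cells only. Srrm1 held 48.7% of the soma sum with 5326 rpm against 1.79 rpm, and Elavl2, a neuronal RNA-binding protein, had 955 and 4.26 rpm. Nova2, a splicing factor of neurons, was listed in somas only (265 rpm), and Ddx17, an RNA helicase, in BAT cells only (1292 rpm). Rbfox1, known as a splicing factor of neurons and muscle, was higher in BAT cells (16.7 and 217 rpm).

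Matrix and integrin genes had 5924 rpm in somas and 6780.2 rpm in BAT cells (log2 -0.19, and 0.41 with contigs of at most 400 nt), and 25 of 46 listed members (54.3%, against 46.6% of all genes) were in BAT cells only. Among the 19 shared members the median log2 was -2.27, and 7 of them were at least 10-fold higher in BAT cells against 1 in somas. The laminin chain Lamb1 had 3051 and 347 rpm and made up 51.5% of the soma sum, while the laminin chain Lama2 (47.4 and 1185 rpm), the collagen receptor Itga1 (1.08 and 970.1 rpm) and the basement membrane linker Nid1 (970 rpm, BAT cells only) led in BAT cells. Insulin and PI3 kinase signalling had 3478 rpm in somas and 5193 rpm in BAT cells (log2 -0.58), with 23 of 34 listed members in both and 10 in BAT cells only, while the median log2 of the shared members was 0.73. The insulin receptor adaptor Grb14 had 12.4 and 832 rpm, and the kinase Mtor had 824 and 50.7 rpm.

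In 1285 of the 5076 shared genes (25.3%, 24.1 to 26.5) no intron was listed in both. The share was higher under stricter limits, with 1576 of 3978 genes for contigs of at most 400 nt and 888 of 2081 genes for at least 10 rpm in a list. The 1285 genes had fewer listed introns, with medians of 1 in somas and 2 in BAT cells against 2 and 3 for genes with a shared intron, and fewer reads, with medians of 11.3 rpm in somas and 6.78 rpm in BAT cells against 37.2 and 35.1 rpm. Ranked by the lower of their totals in the lists, Scn8a came first, with 1028 reads in intron 10 and 6 in intron 25 in somas (554 and 3.23 rpm), and 21131 reads in intron 21 in BAT cells (1183 rpm). Vps54, a tethering factor of the Golgi, had intron 6 in somas (613 rpm), and in BAT cells mainly intron 17 (447 rpm) and intron 12 (78.6 rpm). Chd1, a chromatin remodeler, had intron 23 in somas (782 rpm) and intron 5 in BAT cells (390 rpm), and intron 5 was also the leading one in cardiomyocytes (764 rpm). Abca13, a large transporter, had introns 43 and 37 in somas (721 and 301 rpm) and mainly intron 59 in BAT cells (234 rpm). D730040F13Rik had intron 17 in somas (542 rpm) and introns 9 and 1 in BAT cells (144 and 112 rpm). Here the leading intron in cardiomyocytes was that of somas, intron 17 (78.3 rpm), with 2 reads in intron 9. The leading 2 introns of each of these 5 genes held at least 99.8% of its reads in somas and 74.3% (Abca13) or more in BAT cells.

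Mlh3, a DNA mismatch repair gene that the study names for a switch of introns between cell types, had 741 reads in intron 2 and 111 reads in intron 10 in somas (399 and 59.8 rpm), and 455 reads in intron 8 in BAT cells (25.5 rpm). The soma contig in intron 2 is 454 nt long, and is dropped when contigs of whole cells are limited to 400 nt, so that intron 10 is then the listed soma intron of Mlh3. The mouse dendrite list held introns 2, 5 and 10 of Mlh3, with 2 reads each in introns 2 and 10 and 11 reads in intron 5.

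The classes were then looked up in the mouse dendrite and cardiomyocyte lists, which did not enter their definition. Shared introns were in the dendrite list in 57.7% (56.4 to 59.0), soma-only introns in 35.4% (34.1 to 36.8) and BAT-only introns in 25.2% (24.7 to 25.8). Among introns with at least 100 rpm, the dendrite list held 66.2% of the shared ones (63.9 to 68.5), 40.1% of the soma-only ones (36.4 to 43.9) and 41.7% of the BAT-only ones (38.8 to 44.6). Well-read introns listed in somas only were thus in the list from the same type of neuron about as often as those listed in BAT cells only. The cardiomyocyte list held 46.4% of the shared introns (45.1 to 47.7), 16.1% of the soma-only ones (15.1 to 17.2) and 21.2% of the BAT-only ones (20.7 to 21.7). In neither list were 55.2% of the soma-only introns, 25.3% of the shared ones and 60.7% of the BAT-only ones. Among named introns, 10 were in all 4 lists, such as that of Pitpna, with 2458 rpm in dendrites and 10591 rpm in cardiomyocytes, while those of Gad1, Fkbp6, Ces4a, Dgat2l6, Ctnna2, Fabp4 and Kif1b and intron 2 of Ctnna3 were in a single list of the 4.

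The same intron was often read at another place. Of the 5862 shared introns, 3073 (52.4%, 51.1 to 53.7, and 32.5% of 3156 with contigs of at most 400 nt) had a soma contig and a BAT contig with at least 1 nt in common, and in the others the nearest contigs lay a median of 1374 nt apart. The share was 95.9% in introns below 1000 nt (93.9 to 97.3) and 32.1% in introns of 10000 to 50000 nt (29.8 to 34.4). It was 43.0% where the lower list had fewer than 10 reads (41.2 to 44.9) and 79.0% where it had at least 1000 (67.4 to 87.3). Where they did not overlap, the lower quartile of the gap was 521 nt. Within a list the authors joined reads across gaps of up to about this size. Where contigs overlapped, the median overlap was 231 nt and took up 100% of the shorter contig. In Mtss1, where the intron has 82457 nt, the lists had 2 and 4 contigs and the nearest pair was 194 nt apart, while in Fbxo3 the overlap was 1791 nt.

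Shared introns were longer, with a median of 5595 nt against 2618 nt for soma-only and 2364 nt for BAT-only introns, and 33.8% of them exceeded 10000 nt against 9.06% and 11.03%. First introns made up 11.2% of the shared, 6.06% of the soma-only and 7.60% of the BAT-only introns. Median contig length differed little, from 263 nt in soma-only to 293.5 nt in the BAT contigs of shared introns, and so did GC content, from 40.4% to 42.5%. At least 90% of the intron was covered in 12.8% of the BAT-only introns (12.4 to 13.3) and 8.57% of the shared introns in BAT cells (7.88 to 9.32), and in 1.97% of the soma-only introns (1.61 to 2.41) and 3.55% of the shared introns in somas (3.10 to 4.05). Nearly whole introns, such as those of Fabp4 and Kif1b, were thus more often covered in the BAT list, which also has more reads. An annotated exon of the same strand was touched by 8.42% of the soma-only contigs and 6.82% of the BAT-only contigs.

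A tracts set the lists apart. In windows of 1000 nt centred on a contig and read on the strand of the gene, at least 10 A in a row were found for 28.2% of the soma-only contigs (27.0 to 29.5), 32.7% of the soma contigs of shared introns (31.7 to 33.8), 22.6% of the BAT contigs of shared introns (21.9 to 23.4) and 15.8% of the BAT-only contigs (15.4 to 16.2). Windows of the same length laid along listed introns of at least 1000 nt held an A tract in 10.4% of 198599 cases. Windows on contigs of shorter introns were counted too and reach past the intron. In introns with at least 100 rpm the shares were 39.7% (36.4 to 43.0), 38.2% (36.3 to 40.3), 20.9% (19.3 to 22.5) and 18.4% (16.8 to 20.1) in the same order. T tracts were found in 21.4%, 21.8%, 22.2% and 21.1% of the contig windows, against 14.6% of the windows along introns, and their intervals overlap. In introns with at least 100 rpm, T tracts were found in 15.9% (13.6 to 18.6) and 19.1% (17.5 to 20.8) of the soma windows and in 22.2% (20.6 to 23.8) and 24.0% (22.2 to 25.8) of the BAT windows, an order opposite to that of A tracts. Of the tracts printed above, that of Gad1 is an example from somas, that of Ptprr one from BAT cells, and those of Gria4 and Taf15 are by contigs of both lists, while the named contigs of Fabp4, Kdm6a, Fkbp6, Ptprd and Mlh3 had no A tract within 300 nt. Both lists were made with a poly(T) primer, and what sets the difference between them was not tested.

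**Figure D5:**
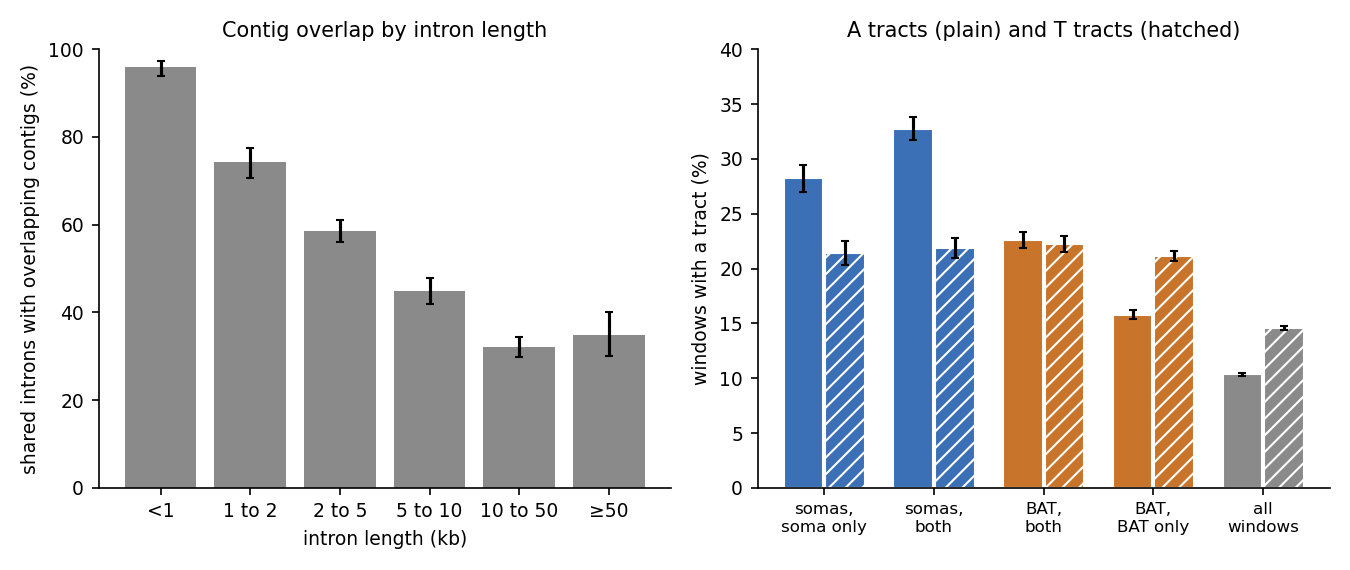
Left, percent of shared introns whose soma and BAT contigs overlap, by intron length in kb, from 95.9% below 1 kb to 32.1% at 10 to 50 kb. Right, percent of 1000-nt windows with a tract of at least 10 A (plain) or T (hatched) around contigs of each class in somas (blue) and BAT cells (orange) and along listed introns of at least 1000 nt (grey), with 95% Wilson intervals. A tracts run from 32.7% in somas to 15.8% in BAT-only contigs, and T tracts from 21.1% to 22.2%.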

How the data were processed

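The deposited values are raw counts of reads, given by the authors for each intron. The authors aligned reads with RUM to mm9, kept reads that map once inside introns, removed introns with predicted genes (GENSCAN, TWINSCAN) or poly(A) sites (PolyA_DB2), and clustered the rest into contigs, pooled over the libraries of a cell type. The count stands on every contig of an intron and was taken once per transcript and intron, matched by transcript, symbol and intron number, and scaled to the list's total. All contigs were kept, although the study limits those of whole cells to 400 nt. Where this limit was applied as an alternative, it removed introns without a short contig. The remaining introns kept their whole count, since no count per contig is given. Introns were matched to GENCODE vM1 on NCBIM37, which placed 99.5% of the soma and 99.3% of the BAT introns inside an intron of the same symbol. Tracts of at least 10 bases were searched in the genome sequence.

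The members, gene lists and markers were chosen with earlier results of these data known. The named genes are the 10 introns with the highest values in somas only, in BAT cells only and, by the lower value, in both, the 5 largest folds each way with at least 100 reads in both, the 5 genes without a shared intron that have the highest lower total, Mlh3, the markers, and members of the gene lists, which were taken from the 4 leading ones in each cell type and also from outside them after the values were seen; some of these are not reported here. The alternatives were minimums of reads, contig length, introns with 1 contig, matching by position or transcript, other scalings, folds, overlaps and thresholds.

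Python 3.11.15, pandas 2.3.3, numpy 2.4.6, scipy 1.17.1, pysam 0.24.0 and matplotlib 3.10.9 were used, and the functions were tested on simulated lists.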

Additional observations from a re-analysis of the deposited data

How the results depend on the processing

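Of 133 recomputed values of 24 results, 74 kept their side and size, 53 moved and 6 changed side. A count or summed ratio kept its size when it changed by less than 1.5-fold. Smaller changes of the shares of well-read introns, such as 35.4% to 32.7%, were called moved. The 74 include the values without introns under another symbol, which could not change, since 0 such introns were found. No paired analysis was possible with these lists because each pools its libraries, and for the same reason no library could be left out.

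Stricter limits reduced the 5862 introns and 5076 genes listed in both by construction, since introns are removed. Contigs of at most 400 nt left 3156 shared introns, of which 1025 had overlapping contigs, and 1010 and 388 were 10-fold higher in somas and in BAT cells. Their counts still hold the reads of longer contigs of the same introns. At least 10 reads left 3104 introns (1886 overlapping) and 3380 genes, at least 32 reads 1893 introns (1231 overlapping) and 2396 genes, and at least 10 rpm 1432 introns (953 overlapping) and 2081 genes. With 1 contig per intron in each list, 3058 introns were shared and 1671 overlapped. Matching by contig position gave 3077 shared introns.

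The shares of well-read introns also listed in the other cell type, 63.7% for somas and 35.4% for BAT cells, became 51.5% and 32.7% with contigs of at most 400 nt, 52.2% and 26.9% with at least 10 reads, 45.01% and 21.6% with at least 32 reads, 31.6% and 24.0% with at least 10 rpm, and 45.1% and 17.4% with 1 contig per intron. With 32 reads in place of 100 rpm as the threshold they were 60.1% and 25.4%. The soma share was the higher one under each of these.

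The counts of 10-fold differences, 1965 in somas and 662 in BAT cells, became 1277 and 1262 with the median ratio of shared introns set to 1, 1035 and 163 with at least 10 reads in both lists, and 178 and 97 with at least 10 rpm in both, which was added after seeing the data. At 4-fold, 2736 introns were higher in somas and 1119 in BAT cells.

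For the gene lists, 8 of 15 had a higher sum in somas, and 5 of 15 with the median ratio of shared introns set to 1. With the median ratio of shared genes set to 1 it was again 8 of 15, and no list changed side. This and the other scalings of gene lists were added after seeing the data. The log2 ratio changed side for postsynaptic scaffolds (-0.88 with contigs of at most 400 nt and -1.23 with the intron scaling), adhesion (-0.60) and splicing factors (-0.80) with the intron scaling, and for axon guidance (0.14) and matrix genes (0.41) with contigs of at most 400 nt. The shift of 1.68 in log2 that the scaling makes is the cause of the former, and for contig length the cause was not tested. Leaving out introns whose contig stands under another symbol changed nothing, since 0 were found.

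The lists give no spread between libraries, so no difference in reads can be set against it. For listing, the paper gives average overlaps of genes and introns between single cells of a type and between cell types. Whether the shares of shared genes and introns found here differ from the overlaps between cells of a type was not tested. The BAT list has 17858440 reads against 1855447 in somas, and what part of the unequal listing comes from this was not tested. Strain, age, handling and number of libraries differ with the cell type. Reads of a gene and of its antisense partner cannot be told apart.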
